A study of Mus musculus with 23 samples.

Results

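Apold1, Depp1, Errfi1 and Gnmt are 4 protein-coding genes, followed here through RNA sequencing libraries from muscle, fat and hypothalamus of mice of the inbred strain C57BL/6. They were picked from the 29894 genes found in any of the 3 tables because their levels were higher with oxaliplatin than with vehicle in each of the 3 tissues. The difference between oxaliplatin and vehicle chose them, so it is described here by its size and spread and carries no test. All 4 genes had a row in each table. Mice received vehicle or 10 mg/kg oxaliplatin, a platinum drug that crosslinks DNA and is given against colorectal cancer, for 8 weeks. No genetic change is named in any group, so the arms of a tissue differed by the drug alone as far as the labels say. Skeletal muscle was the tibialis anterior of the shin (5 oxaliplatin and 4 vehicle libraries), fat was subcutaneous white fat (4 and 3), and the hypothalamus is the brain region that sets feeding and energy use (4 and 3). The labels number the mice but do not say whether a number marks the same animal in each tissue. Muscle libraries were made with another kit than fat and hypothalamus libraries, so levels are not tested between muscle and the other tissues.

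The 4 genes belong to no common pathway. Apold1 encodes a small apolipoprotein L domain protein of the vessel lining, an early response gene that endothelial cells switch on under stress. Depp1 encodes a short protein linked to autophagy, whose transcript is a known target of FOXO factors, the transcription factors that insulin signalling holds out of the nucleus. Errfi1 encodes MIG6, an adaptor that binds the kinase domain of the epidermal growth factor receptor and other ErbB receptors and shuts them off as a feedback inhibitor. Gnmt encodes glycine N-methyltransferase, an enzyme known above all from liver, which moves a methyl group from S-adenosylmethionine onto glycine and so drains surplus methyl groups from the methionine cycle.

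Positions are given on GRCm38 from GENCODE M21, whose gene starts equalled the deposited ones for 99.4% to 99.5% of shared identifiers. Apold1 (ENSMUSG00000090698) lies at chr6:134981718-134986836 on the plus strand, with 3.567 kb of exons. Depp1 (ENSMUSG00000048489) lies on the same strand at chr6:116650609-116652794, 18.3 Mb away, with 1.358 kb of exons and inside Rassf4, a gene of the opposite strand. Errfi1 (ENSMUSG00000028967) lies at chr4:150853919-150868892 on the plus strand, with 3.582 kb of exons, and its 5′ end overlaps the antisense gene 1700045H11Rik. Gnmt (ENSMUSG00000002769) lies at chr17:46725664-46729168 on the minus strand, with 1.206 kb of exons, inside the long non-coding RNA gene Gm26904 of the opposite strand. In each of these 3 overlaps the genes share 0 exon bases in the annotation, although reads from unspliced transcripts of the partner could still reach a member's exons if strand was not used in the counting, which is not stated.

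Promoter windows of the 4 genes were taken from RefSeq (GRCm38.p6) and searched on both strands, over 250 bases before each transcript start, because genes that were high in the same libraries invite a look at their start regions. The motifs searched were the forkhead cores GTAAACA and GTAAATA, the glucocorticoid receptor palindrome (AGAACA, 3 bases of any kind, then TGTTCT) and its left part AGAACA alone, the cAMP element TGACGTCA, the E-box CACGTG, the TATA element TATAAA and the CCAAT box CCAAT. The letters AGAACA lie within the palindrome, and the other motifs do not contain one another. This list was set with the sequences in view, and a match is a run of letters, not a shown binding site. The stretches outside annotated exons are printed below 5′ to 3′ on the gene's strand with motif matches in capitals, since they show that the matches differ between genes. A second RefSeq start of Errfi1 is shown because the window of its other start held none of the motifs, and Apold1 is left out because its whole window lies within an annotated exon.
Depp1, chr6:116650434-116650608, plus strand: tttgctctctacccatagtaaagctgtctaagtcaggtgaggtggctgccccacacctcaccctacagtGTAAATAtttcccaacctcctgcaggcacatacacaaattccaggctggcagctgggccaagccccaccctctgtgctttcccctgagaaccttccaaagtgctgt
Errfi1, chr4:150854950-150855069, plus strand: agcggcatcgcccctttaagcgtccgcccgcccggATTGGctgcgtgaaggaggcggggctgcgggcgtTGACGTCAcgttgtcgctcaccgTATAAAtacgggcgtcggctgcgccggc
Gnmt, chr17:46729169-46729415, minus strand: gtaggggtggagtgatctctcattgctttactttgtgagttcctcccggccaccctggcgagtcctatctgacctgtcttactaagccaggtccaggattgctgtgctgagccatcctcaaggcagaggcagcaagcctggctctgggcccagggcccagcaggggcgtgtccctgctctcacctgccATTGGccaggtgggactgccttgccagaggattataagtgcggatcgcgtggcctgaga

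No motif was common to all 4 genes. The Depp1 window held the forkhead core GTAAATA at 181 to 175 bases before the start, a motif found in 2.73% of 32851 promoter windows of this length. The Errfi1 window held TGACGTCA at 51 to 44 bases before the start (1.55% of windows), TATAAA at 28 to 23 bases (12.4%) and, as ATTGG on the printed strand, the CCAAT box at 85 to 81 bases (33.8%). The Gnmt window held only the CCAAT box, at 62 to 58 bases before the start, and the Apold1 window held TATAAA at 32 to 27 bases and the CCAAT box at 48 to 44 bases. None of the members' windows held GTAAACA (3.17% of all windows), the E-box CACGTG (6.02%), the glucocorticoid left part (16.1%) or the whole palindrome (0.00913%), which says only that these letters are not there.

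Total counts ran from 16.5 to 32.2 M (mega counts) per library, and levels are given as CPM, the counts of a gene per mega count after scaling of the libraries. Tissue markers fitted the labels: summed skeletal muscle fibre markers took 124658 to 171340 CPM in muscle, Adipoq, the adipocyte hormone gene, took 657 to 1290 CPM in fat, and Snap25, a synaptic gene, took 648 to 993 CPM in hypothalamus. Some libraries call for care. The fat vehicle library of mouse 4 held 121263 CPM of muscle fibre markers, against 13.2 to 3000 CPM in the other fat libraries. The fat and hypothalamus oxaliplatin libraries of mouse 5 lay nearest to vehicle in many genes, and leaving out mouse 5 raised the number of genes called in fat from 0 to 4969 and in hypothalamus from 28 to 655. As these are the treated libraries nearest to vehicle, adjusted p-values of fits without them are given as descriptions and not as tests. The muscle oxaliplatin library of mouse 5 carries a vehicle treatment entry, while its title names oxaliplatin, as do its library name and the number of mice given for the group, and it is kept with oxaliplatin here. Nothing in the labels says more about how the replicates were housed or dosed, so their spread may be partly technical.

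Apold1, the gene of the vessel lining, was higher in every oxaliplatin library than in any vehicle library of its tissue. In muscle, the vehicle libraries of mice 1 to 4 held 1.15, 1.55, 0.489 and 0.961 CPM, and the oxaliplatin libraries of mice 1 to 5 held 6.14, 2.18, 3.15, 2.94 and 2.79 CPM. The muscle group means were 1.04 ± 0.44 CPM (SD, n = 4) and 3.44 ± 1.55 CPM (SD, n = 5), and the edgeR log2 fold change was 1.74 ± 0.37 (SE), a 3.34-fold difference. Mouse 1 of the oxaliplatin group stood well above the other 4. In fat, vehicle mice 1, 2 and 4 held 12.9, 7.05 and 6.11 CPM, and oxaliplatin mice 2 to 5 held 41.8, 37.7, 21.6 and 15.5 CPM, a log2 fold change of 1.75 ± 0.43 (SE). The lowest oxaliplatin library, mouse 5, was close to the highest vehicle library, mouse 1, so the groups were apart by a narrow margin. In hypothalamus, vehicle mice 1, 2 and 4 held 3.87, 2.84 and 4.43 CPM, and oxaliplatin mice 2 to 5 held 53.6, 41.2, 27.9 and 12.5 CPM. The hypothalamic means were 3.71 ± 0.80 CPM (SD, n = 3) and 33.8 ± 17.6 CPM (SD, n = 4), and the log2 fold change of 3.19 ± 0.53 (SE), or 9.10-fold, was the largest of the 3 tissues for this gene. Even mouse 5, the lowest, lay well above all vehicle libraries. Without mouse 5 the log2 fold change was 3.45 ± 0.27 in hypothalamus, 1.96 ± 0.36 in fat and 1.81 ± 0.39 in muscle. In whole tissue, more endothelial cells and more Apold1 RNA per endothelial cell cannot be told apart.

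Depp1, the FOXO-responsive autophagy gene, was also above all vehicle libraries in every oxaliplatin library of all 3 tissues. In muscle, vehicle mice 1 to 4 held 10.8, 28.7, 16.8 and 12.9 CPM, and oxaliplatin mice 1 to 5 held 58.7, 43.1, 71.0, 78.9 and 234 CPM. The log2 fold change was 2.49 ± 0.57 (SE), or 5.62-fold, and mouse 5 alone held about 3 times the next highest library. This is the library with the vehicle treatment entry: without it the log2 fold change was 1.86 ± 0.31, and with it set to vehicle it was 0.051 ± 0.968. In fat, vehicle mice 1, 2 and 4 held 43.3, 17.5 and 33.7 CPM, and oxaliplatin mice 2 to 5 held 235, 193, 167 and 48.8 CPM, a log2 fold change of 2.36 ± 0.57 (SE). Mice 2 to 4 stood far above vehicle, and mouse 5 was just over the highest vehicle library. Without mouse 5 the fat value was 2.66 ± 0.34. In hypothalamus, where the transcript was scarce, vehicle mice 1, 2 and 4 held 0.547, 0.396 and 1.22 CPM, and oxaliplatin mice 2 to 5 held 21.5, 15.7, 13.0 and 5.39 CPM. The means of 0.721 ± 0.438 CPM (SD, n = 3) and 13.9 ± 6.7 CPM (SD, n = 4) gave a log2 fold change of 4.27 ± 0.59 (SE), or 19.3-fold. Behind the vehicle values stood 11 to 33 expected counts per library, and behind the oxaliplatin values 131 to 535. The library of mouse 5 was again the lowest of its group and still more than 4-fold above the highest vehicle library.

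**Figure D1:**
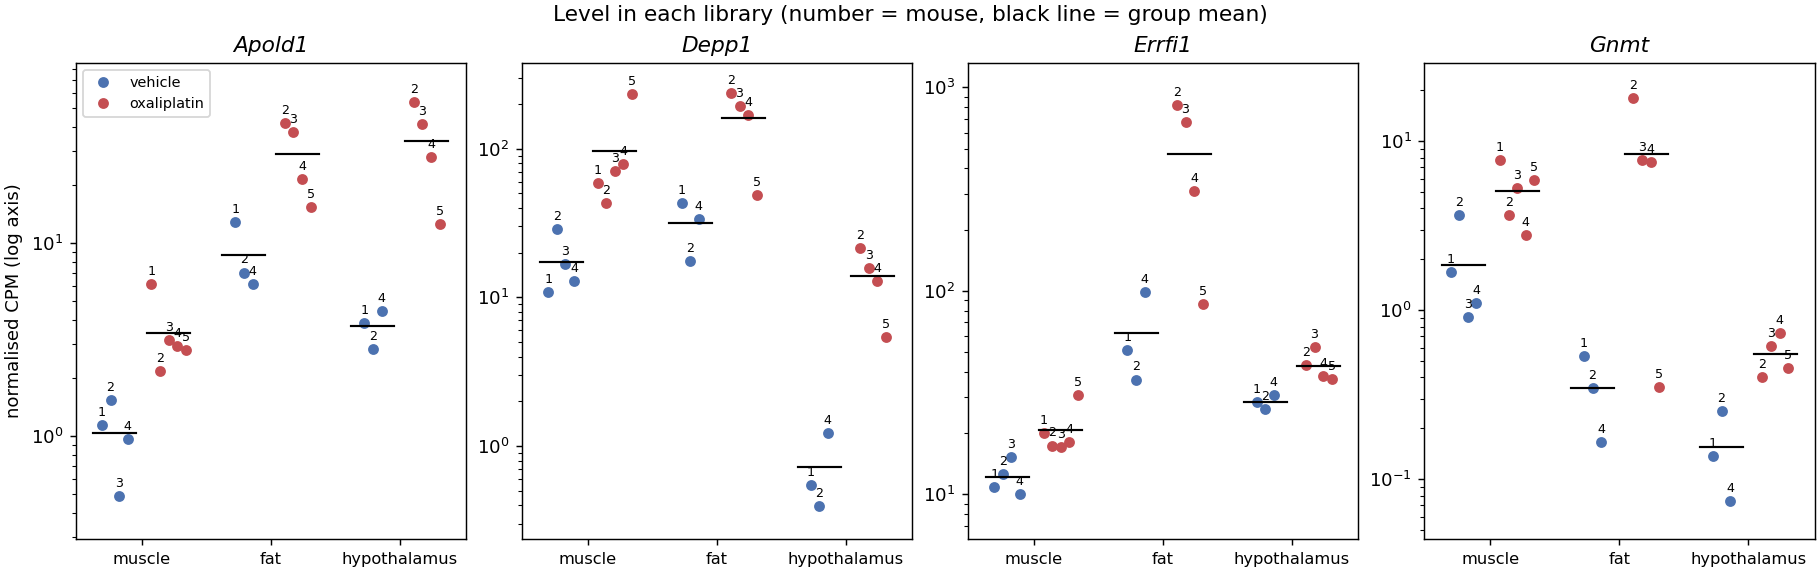
Normalised CPM (log axis) of the 4 genes in each of the 23 libraries, with blue points for vehicle, red points for oxaliplatin, the mouse number above each point and a black line at each group mean. Apold1 and Depp1 do not overlap between the arms in any tissue, while oxaliplatin mouse 5 sits among the vehicle libraries of fat for Errfi1 and Gnmt.

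Errfi1, the feedback inhibitor of ErbB receptors, differed by a large amount in fat and by less than 2-fold in muscle and hypothalamus. In muscle, vehicle mice 1 to 4 held 10.9, 12.6, 15.3 and 10.1 CPM, and oxaliplatin mice 1 to 5 held 20.1, 17.4, 17.2, 18.2 and 30.7 CPM. The groups did not overlap, and the log2 fold change was 0.76 ± 0.19 (SE), or 1.70-fold. It was 0.58 ± 0.15 without mouse 5 and 0.19 ± 0.29 with mouse 5 set to vehicle. In fat, vehicle mice 1, 2 and 4 held 51.2, 36.7 and 99.0 CPM, and oxaliplatin mice 2 to 5 held 823, 673, 309 and 86.4 CPM. The 3 highest libraries lay 3-fold or more above every vehicle library, but mouse 5 lay below vehicle mouse 4, the library with muscle transcripts, so the groups overlapped. The fat means were 62.3 ± 32.6 CPM (SD, n = 3) and 473 ± 336 CPM (SD, n = 4), and the log2 fold change was 2.92 ± 0.79 (SE), 3.27 ± 0.52 without oxaliplatin mouse 5 and 3.45 ± 0.96 without vehicle mouse 4. In hypothalamus, vehicle mice 1, 2 and 4 held 28.6, 26.3 and 30.6 CPM, and oxaliplatin mice 2 to 5 held 43.3, 53.1, 38.3 and 36.7 CPM. The spread was small in both arms, with 28.5 ± 2.1 CPM (SD, n = 3) and 42.8 ± 7.4 CPM (SD, n = 4), and the groups did not overlap. The log2 fold change there was 0.59 ± 0.13 (SE), or 1.50-fold.

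Gnmt, the methyl transfer enzyme, took at most 3.66 CPM in any vehicle library and passed that level in part of the muscle and fat oxaliplatin libraries. In muscle, vehicle mice 1 to 4 held 1.68, 3.66, 0.908 and 1.10 CPM, and oxaliplatin mice 1 to 5 held 7.78, 3.65, 5.30, 2.78 and 5.88 CPM. Only 3 of the 5 oxaliplatin libraries lay above all vehicle libraries, since vehicle mouse 2 was high, and the log2 fold change was 1.48 ± 0.42 (SE). In fat, vehicle mice 1, 2 and 4 held 0.534, 0.347 and 0.165 CPM, and oxaliplatin mice 2 to 5 held 18.1, 7.74, 7.50 and 0.353 CPM. Mice 2 to 4 were over 10-fold above the highest vehicle library, whereas mouse 5 lay within the vehicle range. The fat log2 fold change was 4.59 ± 1.21 (SE) with mouse 5 and 4.99 ± 0.55 without it, and the vehicle libraries held 3 to 8 expected counts each, which limits the precision of any fold. In hypothalamus, vehicle mice 1, 2 and 4 held 0.137, 0.252 and 0.0738 CPM, and oxaliplatin mice 2 to 5 held 0.403, 0.617, 0.730 and 0.453 CPM. These values rest on 2 to 6.78 expected counts per vehicle library and 10 to 19 per oxaliplatin library. The groups did not overlap, and the log2 fold change of 1.80 ± 0.51 (SE) became 2.33 ± 0.64 without vehicle mouse 2. In fat and hypothalamus, Gnmt passed the filter on low counts through its oxaliplatin libraries alone, with 0 vehicle libraries over the minimum, so it could be in those fits only if it was higher with the drug. The other 3 genes passed it in every library of every tissue.

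**Figure D2:**
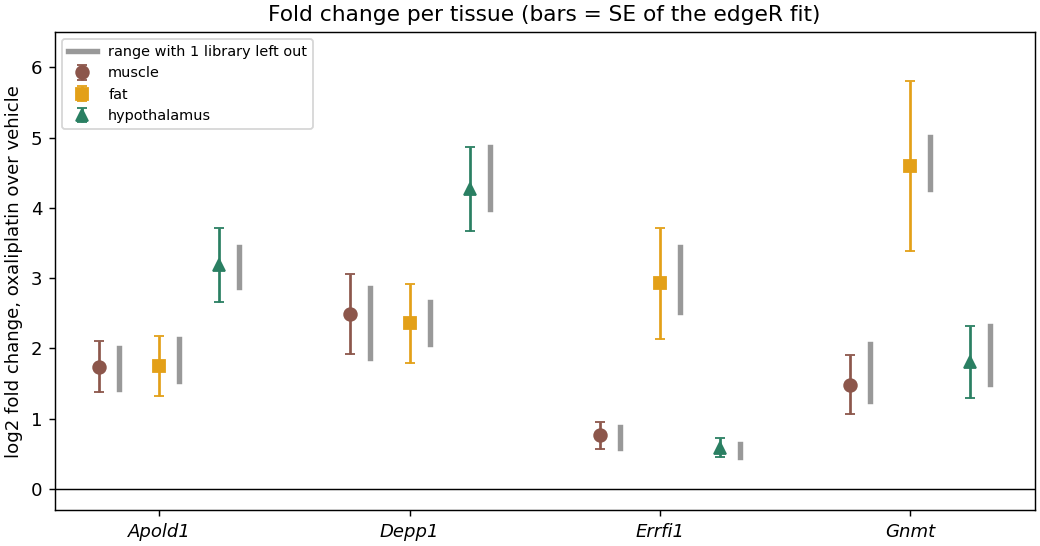
The log2 fold change of oxaliplatin over vehicle for each gene in muscle, fat and hypothalamus, with the standard error of the edgeR fit as a bar and a grey line for the lowest and highest value when 1 library is left out. All values lie above 0, with the largest for Apold1 and Depp1 in hypothalamus (3.19 and 4.27) and for Errfi1 and Gnmt in fat (2.92 and 4.59).

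The tissue with the largest difference was not the same for the 4 genes. Apold1 and Depp1 had their largest log2 fold change in hypothalamus and values within 0.2 of each other in muscle and fat. Errfi1 and Gnmt had theirs in fat, with hypothalamic and muscle values that lay within their standard errors of each other. Whether the fold changes differ between tissues was not tested, because the genes were chosen on them.

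Per kilobase of exon, the order of the genes in vehicle libraries depended on the tissue. Depp1 had the highest level of the 4 in muscle and fat, at 12.7 ± 5.9 and 23.2 ± 9.6 CPM per kb (SD, n = 4 and n = 3). Errfi1 came next with 3.41 ± 0.64 in muscle and 17.4 ± 9.1 CPM per kb in fat, where the spreads of the pair overlapped. In hypothalamus Errfi1 was the highest, at 7.96 ± 0.60 CPM per kb (SD, n = 3), and Apold1 (1.04 ± 0.23), Depp1 (0.531 ± 0.322) and Gnmt (0.128 ± 0.075) were lower. With oxaliplatin, Depp1 at 10.2 ± 4.9, Apold1 at 9.48 ± 4.95 and Errfi1 at 12.0 ± 2.1 CPM per kb (SD, n = 4) reached levels that overlapped in hypothalamus, and Gnmt stayed at 0.457 ± 0.125. In fat, Errfi1 at 132 ± 94 and Depp1 at 119 ± 59 CPM per kb were the most abundant, ahead of Apold1 at 8.17 ± 3.54 and Gnmt at 6.99 ± 6.06.

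Fat and hypothalamus libraries were made with the same kit, and their vehicle libraries were compared with each other. This tissue contrast did not choose the genes, but the same vehicle libraries entered the fold changes that did, so the p-values are not independent of the choice and the differences are given as a description. Depp1 was far more abundant in fat, at 28.3 ± 11.5 CPM against 0.741 ± 0.454 CPM in hypothalamus (SD, n = 3 each, scaled in this fit), a 38.1-fold difference (log2 5.25 ± 0.54 SE, edgeR adjusted p = 0.000152). Apold1 was 2.03-fold higher in fat (log2 1.02 ± 0.31, edgeR adjusted p = 0.0200), at 7.76 ± 3.12 against 3.82 ± 0.83 CPM. All 3 fat libraries lay above all 3 hypothalamus libraries for both genes. The same held by a narrow margin for Errfi1 (lowest fat library 32.7 CPM, highest hypothalamus library 31.7 CPM). Errfi1, at 56.5 ± 31.0 against 29.3 ± 2.3 CPM, missed the threshold (log2 0.95 ± 0.37, edgeR adjusted p = 0.0594), with fat mouse 4 the highest library, and without that library the log2 difference was 0.39 ± 0.15 (edgeR adjusted p = 0.0418). The Apold1 call was lost without fat mouse 1 (log2 0.64, edgeR adjusted p = 0.0520) or without hypothalamus mouse 1 or mouse 2 (adjusted p = 0.0599 and 0.0769). Gnmt did not pass the filter here, and with no filter its log2 difference was 0.88 ± 0.66 (edgeR adjusted p = 0.278). Of 19564 genes in this fit 71.7% were called, 37.5% higher and 34.2% lower in fat, so a call between these tissues is common.

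Set beside all genes, the 4 differ in how evenly they separated the arms. In muscle, 3 of the 4 (all but Gnmt) had every oxaliplatin library above every vehicle library, which held for 2.18% of 14737 genes. In fat this was so for Apold1 and Depp1, against 10.3% of 19870 genes, and in hypothalamus for all 4, against 5.58% of 18941 genes. The choice of the genes fixed most of this, so nothing is read from these counts. Over the 13284 genes tested in all 3 tissues, 2062 had a log2 fold change above 0 in each, and 12 genes (0.0903%) had no overlap between the arms in any tissue: Cdkn1a, Depp1, Apold1, Adm, Angpt2, Pecam1, Ackr1, Egln3, Icam2, Adcy4, Thsd1 and Mif. Errfi1 joined the list when fat vehicle mouse 4 was left out (17 genes, 0.128%) or when fat oxaliplatin mouse 5 was left out (21 genes, 0.158%). Without hypothalamus oxaliplatin mouse 5 the list held 21 genes (0.159%) and the same pair of members.

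Ranked by the smallest of their 3 log2 fold changes, Depp1 came in place 2, Apold1 in place 3 and Gnmt in place 4, behind Cdkn1a, the p53-induced cell cycle inhibitor, with 3.25 in muscle, 3.63 in fat and 2.79 in hypothalamus. The next places went to Adm, the vessel-dilating peptide adrenomedullin, Acer2, an alkaline ceramidase, and Fkbp5, a glucocorticoid-induced chaperone, with smallest values of 1.42, 1.40 and 1.37, just below the 1.48 of Gnmt. Errfi1 came in place 48 because its hypothalamic value was 0.59. The fold changes that rank the genes also chose the members, so nothing is read from their places. Gnmt could be ranked only because its oxaliplatin libraries passed the filter in fat and hypothalamus.

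**Figure D3:**
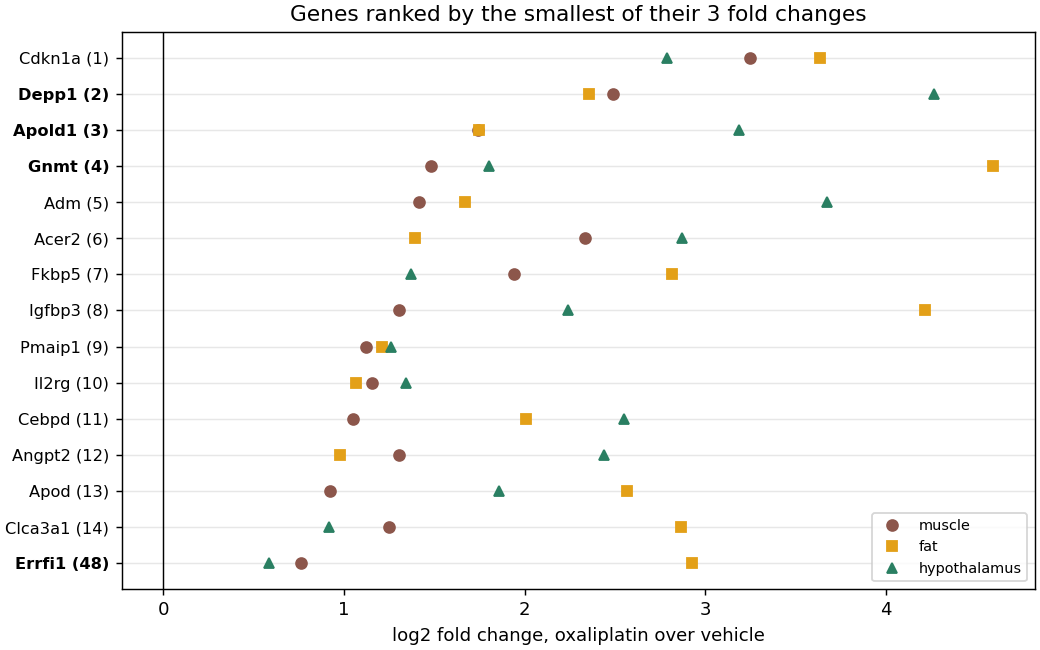
The log2 fold change of oxaliplatin over vehicle in muscle, fat and hypothalamus for the named genes ranked 1 to 14 by the smallest of their 3 values, and for Errfi1, which ranked 48. The members are in bold and were chosen on these fold changes. Depp1, Apold1 and Gnmt sit at places 2 to 4, with smallest values of 2.36, 1.74 and 1.48.

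Across libraries, the level of each gene was compared with the others as log2 CPM minus the mean of the vehicle libraries of its tissue, over 23 libraries that share the drug contrast and the sequencing depth of their tissue. Apold1 and Depp1 gave a Pearson r of 0.917, and Errfi1 and Gnmt gave 0.871. When each group's own mean was removed, so that only the spread between mice of a group counted, these were 0.556 and 0.689. In fat the within-group r of all 6 pairs lay between 0.668 and 0.889, the fat oxaliplatin libraries of mice 2 to 4 being high and mouse 5 low for each gene. In hypothalamus Apold1 and Depp1 gave 0.917 within groups, and Gnmt gave -0.415 with Depp1. In muscle Apold1 went with Gnmt (0.792) and Depp1 with Errfi1 (0.793), while Apold1 and Depp1 gave 0.0381. These are descriptions over 7 to 9 libraries of a tissue and carry no test.

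The genes most like Apold1 over the 23 libraries, out of 13284, were Pecam1 (r = 0.969), an adhesion molecule of endothelial cells, Kcnj8 (0.930), a potassium channel subunit of pericytes, and Esam (0.918), another endothelial adhesion molecule. With group means removed they kept an r of 0.862, 0.713 and 0.761. Depp1 was closest to Acer2 (0.934), Pecam1 (0.934) and Apold1 (0.917), and with group means removed these fell to 0.757, 0.601 and 0.556. Errfi1 was closest to Trp53inp1 (0.967), a p53-induced stress gene, Asph (0.960), an aspartyl hydroxylase, and Nfil3 (0.952), a transcription factor of the clock and of immune cells. Gnmt was closest to Cyp2d22 (0.905), a cytochrome P450 enzyme, Psma6 (0.897), a proteasome subunit, and Kyat3 (0.890), a transaminase. With group means removed, the genes of Errfi1 kept an r of 0.897, 0.888 and 0.862, and those of Gnmt kept 0.861, 0.884 and 0.845. The lists of Apold1 and Depp1 shared Pecam1, and those of Errfi1 and Gnmt shared no gene with any other.

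The vessel genes that surround Apold1 were measured with a list of 20 endothelial markers. In hypothalamus 5 of 20 rose at an edgeR adjusted p under 0.05 and none fell, against 0.148% of all genes called there. They included Eng, a co-receptor for TGF-beta (mean 24.6 CPM with vehicle to 58.3 CPM with oxaliplatin, log2 1.25 ± 0.12, adjusted p = 0.00738), Flt1, a VEGF receptor (log2 1.22 ± 0.14, adjusted p = 0.0136), Vwf, the clotting factor carrier (30.0 to 236 CPM, log2 2.97 ± 0.30, adjusted p = 0.0193) and Pecam1 (16.9 to 47.5 CPM, log2 1.49 ± 0.18, adjusted p = 0.0212). The median log2 fold change of the 20 was 0.95 there, against 0.01 over all genes, and the summed level was 599 to 1012 CPM with oxaliplatin and 323 to 341 CPM with vehicle. The count ran from 0 to 14 when 1 library was left out, with 0 without oxaliplatin mouse 4 or without any vehicle library and 14 without oxaliplatin mouse 5, where 3.49% of 18781 genes were called (2.12% higher, 1.36% lower). In muscle, where 0.163% of all genes were called (0.115% higher, 0.0475% lower), Pecam1 alone rose (47.4 to 75.8 CPM, log2 0.68 ± 0.11, edgeR adjusted p = 0.0443), and this call was lost in 8 of the 9 fits that left out a library. The muscle median was 0.25, against -0.01 over all genes. In fat 0 of 20 passed edgeR, as did 0% of all genes. There 9 had an unadjusted p under 0.05 (6 higher, 3 lower), against 26.1% of all genes (13.4% higher, 12.7% lower). DESeq2 called 2 higher and 2 lower, against 1168 higher and 1282 lower of 19870 genes, and limma-voom called 0. Without fat oxaliplatin mouse 5, 4 endothelial markers rose and 2 fell, where 25.5% of 19472 genes were called (12% higher, 13.5% lower), and leaving out each other fat library gave 0. Kcnj8 and Abcc9, the subunits of the pericyte potassium channel, rose in hypothalamus too (log2 1.61 ± 0.20 and 1.22 ± 0.14, edgeR adjusted p = 0.0193 and 0.0136), as the called members of 8 pericyte and smooth muscle genes, and this count was 0 in 5 of the 7 fits that left out a library. The part of vessel cell content in the Apold1 levels was not tested.

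Apold1 is also an early response gene, and 23 immediate early genes were therefore counted. With all libraries, 0 passed edgeR in any tissue. Without oxaliplatin mouse 5, 7 rose and 3 fell in fat (25.5% of all genes called) and 6 rose in hypothalamus (3.49%), and leaving out each other library gave 0. In both tissues these included Maff, a small Maf transcription factor (log2 2.28 ± 0.27 in fat and 3.03 ± 0.18 in hypothalamus, edgeR adjusted p = 0.00206 and 0.00022), while Klf4, a Krüppel-like factor, fell in fat (-0.96 ± 0.10, adjusted p = 0.00124) and rose in hypothalamus (0.91 ± 0.17, adjusted p = 0.029). At an unadjusted p under 0.05, 6 were higher and 1 lower in muscle, 7 higher and 3 lower in fat, and 8 higher and 0 lower in hypothalamus. Over all genes the shares at that p were 4.8% higher and 4.79% lower in muscle (9.59% in all), 13.4% and 12.7% in fat (26.1%), and 6.2% and 4% in hypothalamus (10.2%). DESeq2 called 3 higher in muscle, 2 higher and 3 lower in fat, and 4 higher in hypothalamus. Over all genes it called 161 higher and 93 lower of 14737 in muscle and 1168 and 1282 of 19870 in fat. In hypothalamus it called 217 and 45 of 18941. With limma-voom, 0 of the immediate early genes were called in each tissue. Their median log2 fold changes were 0.48 in muscle, -0.17 in fat and 0.48 in hypothalamus. Egr1 and Ier3 came nearest in muscle (log2 1.01 and 0.63, edgeR adjusted p = 0.0604 and 0.0629).

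For Depp1, the other genes that respond to FOXO factors were taken as a list of 23. With edgeR 0 of them passed in muscle, fat or hypothalamus. At an unadjusted p under 0.05, 3 were higher and 1 lower in muscle, 10 higher and 1 lower in fat, and 8 higher and 2 lower in hypothalamus. Over all genes the shares at that p were 4.8% higher and 4.79% lower in muscle, 13.4% and 12.7% in fat, and 6.2% and 4% in hypothalamus. DESeq2 called 0 in muscle, 5 in fat, all higher, and 1 higher and 1 lower in hypothalamus. Over all genes it called 1168 of 19870 higher and 1282 lower in fat, and 217 of 18941 higher and 45 lower in hypothalamus. With limma-voom, 0 of the FOXO-responsive genes were called in each tissue. Their medians were 0.23, 0.54 and 0.20, against -0.01, 0.03 and 0.01 over all genes. Klf15, a regulator of amino acid breakdown, had log2 fold changes of 0.45, 1.24 and 0.59 in muscle, fat and hypothalamus, and Foxo1 itself had 0.59, 0.69 and 0.35. Without fat oxaliplatin mouse 5, where 25.5% of 19472 genes were called (12% higher, 13.5% lower), 12 FOXO-responsive genes rose in fat and 2 fell. Among them were Klf15 (log2 1.41 ± 0.22, edgeR adjusted p = 0.00523), Cat, the catalase gene (1.39 ± 0.23, adjusted p = 0.00660), Foxo3 (0.94 ± 0.16, adjusted p = 0.00742) and Sesn3, a sestrin (-1.82 ± 0.22, adjusted p = 0.00228). Leaving out each other fat library gave 0. In hypothalamus without oxaliplatin mouse 5, 5 rose, among them Bnip3, a mitophagy receptor (0.97 ± 0.09, edgeR adjusted p = 0.00132), and Fbxo32, a ubiquitin ligase subunit, fell (-0.66 ± 0.10, adjusted p = 0.0116), against 3.49% of all genes, and leaving out each other library gave 0.

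Around Errfi1, the 4 ErbB receptors, their 11 ligands and 18 further feedback inhibitors of ErbB and MAP kinase signalling were counted. Dusp6, a phosphatase of the ERK kinases, rose in hypothalamus (16.4 to 33.8 CPM, log2 1.04 ± 0.14, edgeR adjusted p = 0.0297). It was the only inhibitor of 17 tested to pass there, against 0.148% of all genes called. Its call was lost in 5 of the 7 fits that left out a library. At an unadjusted p under 0.05, 4 inhibitors were higher and 0 lower in hypothalamus, against 6.2% and 4% of all genes. DESeq2 called 2 there, both higher, against 217 of 18941 genes higher, and limma-voom called 0. In muscle 0 of 16 and in fat 0 of 17 inhibitors passed edgeR. At an unadjusted p under 0.05, 1 was higher in muscle (4.8% of all genes) and 1 lower in fat (12.7%), and DESeq2 and limma-voom called 0. Without fat oxaliplatin mouse 5, where 25.5% of all genes were called, Dusp4, another MAP kinase phosphatase, rose (0.81 ± 0.20, edgeR adjusted p = 0.0244) and Spry2, a sprouty inhibitor, fell (-0.58 ± 0.14, adjusted p = 0.0208). The inhibitors had medians of -0.05, 0.09 and 0.14 in muscle, fat and hypothalamus. Their summed level in fat was 805 to 848 CPM with oxaliplatin and 762 to 797 CPM with vehicle. No receptor or ligand passed edgeR in any tissue. At an unadjusted p under 0.05, 1 receptor and 1 ligand were higher in muscle, 2 receptors and 2 ligands lower and 1 ligand higher in fat, and 0 in hypothalamus. Over all genes the shares at that p were 4.8% higher in muscle, and 13.4% higher and 12.7% lower in fat. DESeq2 called 2 receptors and 2 ligands in fat, all lower, against 1282 of 19870 genes lower, and 0 elsewhere. With limma-voom, 0 receptors or ligands were called. In fat, Erbb2 and Erbb4 had log2 fold changes of -0.52 and -1.44, and Egfr, the main target of the Errfi1 protein, had -0.18 in fat, -0.20 in muscle and -0.16 in hypothalamus. In the same fit without fat oxaliplatin mouse 5 (13.5% of all genes lower), Erbb2 fell by 0.54 ± 0.13 and Erbb4 fell by 1.69 ± 0.45 on the log2 scale (edgeR adjusted p = 0.0222 and 0.0340), the ligand Btc fell by 3.30 ± 0.78 (adjusted p = 0.0259), and Egfr gave -0.44 ± 0.37 (adjusted p = 0.410).

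Gnmt works in the methionine cycle, and 26 genes of that cycle and of one-carbon metabolism were listed with it. In muscle, Amd1, which commits S-adenosylmethionine to polyamine synthesis, fell from 476 to 149 CPM (log2 -1.68 ± 0.28, edgeR adjusted p = 0.0486). It was the only called gene of 20 tested, against 0.163% of all genes called there (0.115% higher, 0.0475% lower). Its call was lost in 8 of the 9 fits that left out a library. In fat 0 of 21 and in hypothalamus 0 of 23 passed edgeR, with 4 higher and 4 lower in fat and 3 higher and 3 lower in hypothalamus at an unadjusted p under 0.05. Over all genes the shares at that p were 13.4% higher and 12.7% lower in fat, and 6.2% and 4% in hypothalamus. DESeq2 called 3 higher and 1 lower in fat, where it called 1168 of 19870 genes higher and 1282 lower. In hypothalamus it called 1 lower, where it called 217 of 18941 genes higher and 45 lower. With limma-voom, 0 genes of the list were called. In fat, Ahcy, which clears S-adenosylhomocysteine, the product of the Gnmt reaction, had a log2 fold change of 3.15, and Cbs, which takes homocysteine out of the cycle, had 3.07. Without fat oxaliplatin mouse 5, 5 genes of the list rose and 3 fell, where 25.5% of all genes were called (12% higher, 13.5% lower). They included Ahcy (3.53 ± 0.36, edgeR adjusted p = 0.00176), Cbs (3.41 ± 0.57, adjusted p = 0.0110), Cth, the next step towards cysteine (1.63 ± 0.42, adjusted p = 0.0308), and Gamt, which uses S-adenosylmethionine to make creatine (-2.69 ± 0.22, adjusted p = 0.000648). In hypothalamus without oxaliplatin mouse 5, Gatm, the first enzyme of creatine synthesis, fell (-0.67 ± 0.14, edgeR adjusted p = 0.0443). Outside fat Ahcy had 0.28 in hypothalamus and -0.04 in muscle, and Cbs had 0.18 and 1.29. Gnmt is known from liver, and hepatocyte markers were checked: 3 of the 7 had a row in the muscle table, 3 in the hypothalamus table and 5 in the fat table. Alb, which encodes albumin, took 0 to 0.509 CPM in muscle and 6.92 to 38.2 CPM in fat. The summed hepatocyte markers in fat took 1581 to 3480 CPM with oxaliplatin and 734 to 1044 CPM with vehicle, mostly from Cyp2e1, which fat also expresses (912 CPM with vehicle and 2613 CPM with oxaliplatin). The markers did not move together: of 4 tested in fat, only 2 had a log2 fold change above 0. The part of liver transcripts in the Gnmt levels was not tested.

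Both broad stress programmes that could take in the 4 genes were counted as well. Of 22 glucocorticoid-induced genes tested in hypothalamus, Lcn2, an iron-binding acute phase protein (log2 5.31 ± 0.71, edgeR adjusted p = 0.0458), and Cebpd, a transcription factor (4.08 to 23.8 CPM, log2 2.55 ± 0.34, adjusted p = 0.0483), rose, against 0.148% of all genes called there, and 21 were higher at an unadjusted p under 0.05, against 6.2% of all genes. Their median was 1.02, against 0.01 over all genes, and DESeq2 called 10 while limma-voom called 0. The edgeR count was 18, all higher, without oxaliplatin mouse 5, where 3.49% of all genes were called, and 0 in 5 of the 7 fits that left out a library. In fat and muscle 0 passed edgeR, with 14 higher and 1 lower in fat and 6 higher and 2 lower in muscle at an unadjusted p under 0.05. DESeq2 called 12 higher and 1 lower in fat and 1 higher in muscle, and limma-voom called 0 in both. The medians were 1.12 in fat and 0.46 in muscle. The shares of all genes at that unadjusted p were 13.4% higher and 12.7% lower in fat and 4.8% and 4.79% in muscle. Without fat oxaliplatin mouse 5, 13 of the list rose and 2 fell, against 12% and 13.5% of all genes, and leaving out each other fat library gave 0. Those that rose included Nfkbia, the NF-kappaB inhibitor (1.75 ± 0.11, edgeR adjusted p = 0.000351), Ddit4, an mTOR inhibitor (3.36 ± 0.37, adjusted p = 0.00196), and Fkbp5 (3.14 ± 0.45, adjusted p = 0.00468). Of 25 p53 targets, 23 to 25 were tested per tissue and 0 passed edgeR with all libraries. Without oxaliplatin mouse 5, 10 rose and 1 fell in fat (12% and 13.5% of all genes) and 3 rose in hypothalamus (2.12% of all genes higher). In fat these included Trp53inp1 (4.11 ± 0.31, edgeR adjusted p = 0.000542), Cdkn1a (3.87 ± 0.33, adjusted p = 0.000859) and Phlda3, which fell (-2.39 ± 0.32, adjusted p = 0.0035). In hypothalamus they were Cdkn1a (3.08 ± 0.27, adjusted p = 0.00218), Ephx1, an epoxide hydrolase (0.82 ± 0.13, adjusted p = 0.0139), and Pmaip1, a pro-apoptotic BCL2 family gene (1.40 ± 0.27, adjusted p = 0.0326). In muscle 1 rose without oxaliplatin mouse 5, Cdkn1a (2.86 ± 0.37, adjusted p = 0.0477), and 1 without vehicle mouse 4, Ephx1 (0.80 ± 0.11, adjusted p = 0.0163). Leaving out each other library gave 0 in the 3 tissues. At an unadjusted p under 0.05, 10 were higher and 0 lower in muscle, 10 higher and 3 lower in fat, and 7 higher and 1 lower in hypothalamus. DESeq2 called 5 higher in muscle, 8 higher and 2 lower in fat, and 2 higher in hypothalamus. Over all genes it called 161 higher and 93 lower of 14737 in muscle and 1168 and 1282 of 19870 in fat. In hypothalamus it called 217 and 45 of 18941. Of the p53 targets, limma-voom called 1 in muscle and 0 elsewhere. Their medians were 0.40, 0.51 and 0.24. With all libraries Cdkn1a, the gene ahead of Depp1 in the ranking, had edgeR adjusted p-values of 0.0526 in muscle, 0.0751 in fat and 0.285 in hypothalamus.

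**Figure D4:**
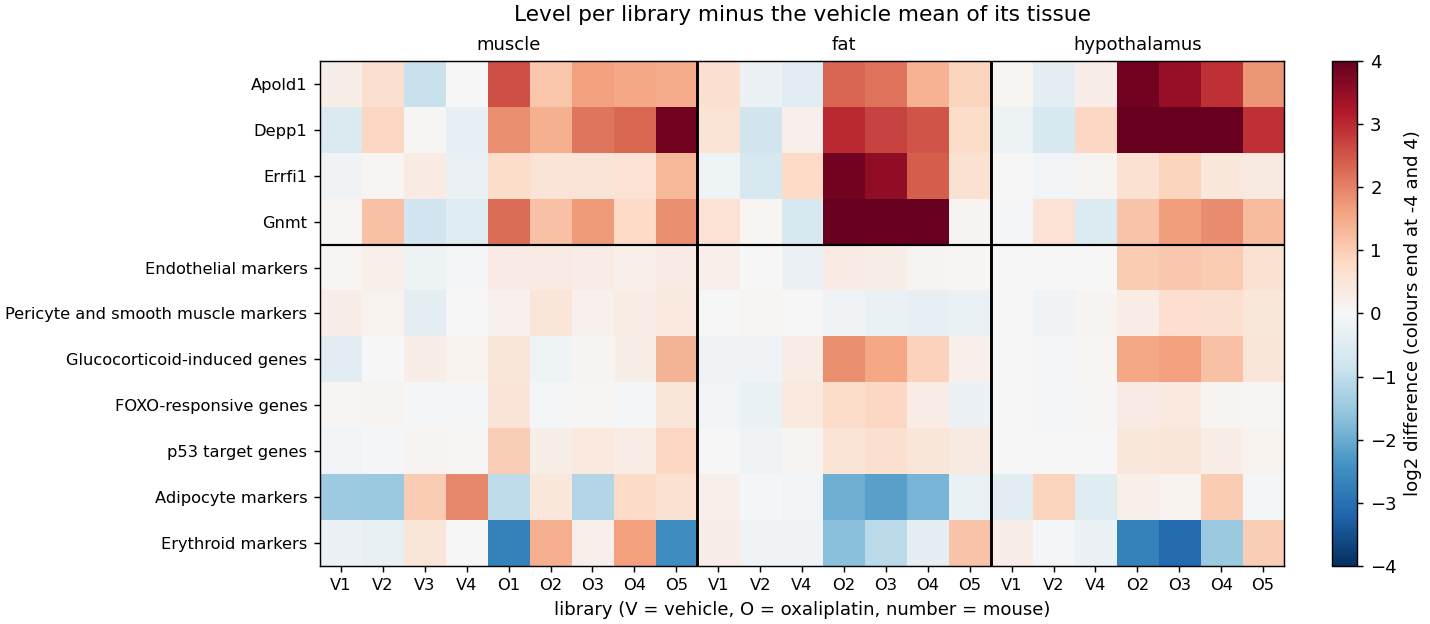
The level of the 4 genes and the mean level of 7 gene lists in each of 23 libraries, as log2 CPM minus the vehicle mean of the tissue, with colours ending at -4 and 4. Vehicle libraries (V) are pale and oxaliplatin libraries (O) mostly red for the members. Erythroid markers are blue in muscle oxaliplatin mice 1 and 5 and in oxaliplatin mice 2 to 4 of fat and hypothalamus. Some members, but not all, are highest in these libraries.

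Several values moved with part of the members from library to library. In fat and hypothalamus, the oxaliplatin library of mouse 2 held the highest and that of mouse 5 the lowest Apold1 and Depp1. Summed erythroid markers ran the other way: in hypothalamus they took 74.4 to 251 CPM in oxaliplatin mice 2 to 4, 1322 CPM in mouse 5 and 645 to 912 CPM with vehicle. In fat they took 204 to 554 CPM in oxaliplatin mice 2 to 4, 1528 CPM in mouse 5 and 681 to 937 CPM with vehicle. In muscle they were lowest in oxaliplatin mouse 1 (89.6 CPM), the highest library for Apold1 and Gnmt, and in mouse 5 (108 CPM), the highest for Depp1 and Errfi1, against 766 to 1943 CPM in the other oxaliplatin libraries and 554 to 933 CPM with vehicle. Other members did not go with the erythroid markers. In muscle, Apold1 in mouse 5 (2.79 CPM) and Depp1 in mouse 1 (58.7 CPM) lay within the range of the other oxaliplatin libraries. In hypothalamus, oxaliplatin mouse 2 held the lowest Gnmt of its group (0.403 CPM), below mouse 5 (0.453 CPM). Adipocyte markers in fat took 3591 to 4065 CPM in oxaliplatin mice 2 to 4, 8800 CPM in mouse 5 and 8855 to 12280 CPM with vehicle. The part of blood content and of fat cell content in the levels of the 4 genes was not tested.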

How the data were processed

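Per the labels' protocols, RNA was extracted on magnetic beads from tissue kept in a stabilising solution, the muscle libraries came from the Clontech SMARTer kit, and those of fat and hypothalamus from a RiboErase kit, which removes ribosomal RNA. Per the submitters' processing notes, STAR 2.5.1a, Partek and DESeq2 were used, with no role given. The authors deposited 1 table of expected counts per gene for each tissue, which are estimates not scaled between libraries. Neither the genome build nor strand use in counting is stated in the labels used here. The plan had assumed whole counts, so expected counts were rounded to whole numbers.

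Members were matched by gene symbol. Each tissue was fitted alone in edgeR 4.0.16 (R 4.3.3) with filterByExpr (minimum count 10, minimum total 15), TMM scaling and the robust quasi-likelihood F test, and p-values were adjusted by Benjamini-Hochberg over all genes tested, and a gene was called at an adjusted p under 0.05. Standard errors were recovered from the F statistic as the absolute log2 fold change over its square root. CPM values use TMM sizes; log2 CPM has a prior count of 2. Vehicle fat and hypothalamus libraries were compared in 1 further fit, which rescales them, so their CPM differ slightly from those of the tissue fits. No 2 libraries of a group were copies (34 pairs, lowest chi-square per degree of freedom 7.37). The fits were tested on simulated data.

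The members and all gene lists were chosen with earlier results of these data known, so their counts are descriptions and not independent support. The text names the members, up to 4 genes of smallest p per list and tissue, the 3 genes most like each member by Pearson r, and up to 10 genes without overlap between the arms in all 3 tissues. Sesn3, Thsd1, Mif, the list genes named only in fits without a library and the other genes ranked in the plot of smallest fold changes were named after their values were seen. Alternatives were edgeR with upper quartile scaling or with size factors of DESeq2, the DESeq2 Wald test (1.42.0), limma-voom (limma 3.58.1), a stricter filter (mean of 1 CPM) or none, leaving out each library, mouse number as a block, and muscle mouse 5 set to vehicle.

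In the comparisons made, mouse numbers were not taken as pairs. Same-numbered libraries of the 2 arms deviated together with correlations of -0.28 to 0.174. For vehicle fat and hypothalamus the correlations were 0.0408, 0.011 and 0.0278 in mice 1, 2 and 4. Each was above the highest correlation with another number, at -0.0191, -0.00121 and 0.00436. All of these are near 0, so they do not settle whether those libraries share animals. Mouse number as a block was among the alternatives. No test between tissues used oxaliplatin libraries. The correlations over 23 libraries, the 12 genes apart in all 3 tissues and the ranking by smallest fold change did use them. Pairing of oxaliplatin libraries across tissues was not checked. Among them, mouse 2 was highest and mouse 5 lowest for Apold1 and Depp1 in both fat and hypothalamus, and mouse 5 had the highest summed erythroid markers (1528 and 1322 CPM). Whether a number marks the same animal in each tissue is not given in the labels.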

Additional observations from a re-analysis of the deposited data

Results flagged for a closer look

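Within each group of 4 or 5 libraries, a library whose gap to its nearest neighbour took up more of the group's range than Dixon's 95% critical value was marked. In all 16 groups were checked, and chance alone marks about 1 in 20 if values are normally spread. Gaps were taken on CPM and not on log2 CPM, where high values stand out less, so the marks can depend on this scale. A gap over 0.71 of the range marks a group of 5. All 3 marked values came from oxaliplatin muscle libraries. Apold1 in mouse 1 was 6.14 CPM, with a gap to the next library (3.15 CPM) of 0.755 of the range. Depp1 in mouse 5 was 234 CPM, with a gap to the next library (78.9 CPM) of 0.812 of the range. Errfi1 in mouse 5 was 30.7 CPM, with a gap to the next library (20.1 CPM) of 0.783 of the range. Mouse 5 is the library whose treatment entry says vehicle. Its Depp1 and Errfi1 lay farther from the vehicle libraries than those of the other oxaliplatin mice. The genes were chosen with this library counted as oxaliplatin, so these values cannot speak to its treatment entry. Mice 1 and 5 were also the muscle libraries with the lowest erythroid markers (89.6 and 108 CPM), and the part of blood content in these values was not tested.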

How the results depend on the processing

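All 176 alternative values of the members' log2 fold changes of oxaliplatin over vehicle were above 0, and 3 moved by more than the spread between libraries. With muscle mouse 5 set to vehicle, Depp1 gave 0.051 and Errfi1 gave 0.19 in muscle, and 0 genes were called there. Gnmt in hypothalamus ran from 1.49 to 2.33 with 1 library left out, and it dropped out of the fat fit without oxaliplatin mouse 2, 3 or 4 and out of the hypothalamus fit under the 1 CPM filter, as too few libraries then passed. Counts of called genes moved most. In muscle (24 genes) DESeq2 gave 254, limma-voom 13, no filter 42 and 1 library left out 2 to 17. In fat (0 genes) DESeq2 gave 2450 and 1 library left out 0 to 4969. In hypothalamus (28 genes) DESeq2 gave 262, limma-voom 11 and 1 library left out 0 to 655. The 12 genes apart in all 3 tissues became 13 to 21 with the doubted libraries left out, of which the settings for fat and hypothalamus were chosen after seeing the data.

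Between vehicle fat and hypothalamus, the log2 difference of Apold1 ran from 0.64 to 1.19 and that of Errfi1 from 0.39 to 1.15 with 1 library left out. Errfi1 passed the threshold with upper quartile factors (1.22, edgeR adjusted p = 0.0156), DESeq2 (0.89, adjusted p = 0.00894) and the 1 CPM filter (1.02, edgeR adjusted p = 0.0458). With the mouse number as a replicate block it passed too (0.81, edgeR adjusted p = 0.0453), and the block gave 3 called genes in muscle; it changed neither other tested member. The cause of these moves was not tested. Counting error limits Gnmt most, with under 10 expected counts in each vehicle library of fat and hypothalamus.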
